A study of Mus musculus with 2 samples.

Results

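The miR-29 family of the mouse is made from 4 genes, Mir29a, Mir29b-1, Mir29b-2 and Mir29c. These 4 were chosen by name, and all 4 were among the 1973 miRNA genes counted. The data come from microRNA sequencing of whole liver of mouse embryos at 15.5 days of development, of the strain B6NCrl, healthy and of both sexes pooled. There was 1 group of 2 libraries: the pool behind replicate 1 held 78 embryos and the pool behind replicate 2 held 62. No allele, agent or second condition is given, so levels within fetal liver and the match of the pools are what the data can show. A pool averages its embryos, and the spread between the libraries is that of pools and library making, not of single animals.

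A microRNA is cut from a hairpin as a short RNA that guides Argonaute proteins to messenger RNAs, mainly through pairing of its seed, bases 2 to 8, with the 3′ UTR. miR-29 is known for targets in the extracellular matrix, among them fibrillar collagens, elastin and fibrillin, and it is low in the activated stellate cells that lay down matrix in injured mouse liver. It is also known to target the DNA methyltransferases DNMT3A and DNMT3B in human cells and enzymes of active DNA demethylation of the TET family.

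Each gene yields a 5p and a 3p mature RNA, and the 3p strand is the guide that the family is named for. The 3p sequences are shown first because they carry the seed and because those of the miR-29b genes are the same. They are from RefSeq on GRCm38.p6, 5′ to 3′, with the seed in capitals.
miR-29a-3p, from Mir29a: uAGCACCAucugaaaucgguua
miR-29c-3p, from Mir29c: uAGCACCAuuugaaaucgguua
miR-29b-3p, from Mir29b-1 and from Mir29b-2: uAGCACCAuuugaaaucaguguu

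All 4 genes share the 3p seed, and no other gene among 1738 mature entries searched had it. Counted from the 5′ end of the mature RNA, miR-29c-3p differed from miR-29a-3p by the single substitution C10U, with 21 of 22 bases identical. miR-29b-3p differed from miR-29c-3p by G18A, U21G and A22U over the 22 bases both have, so their first 17 bases are the same. miR-29a-3p parts from both after its first 9 bases.

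The 5p strands are what tells the miR-29b genes apart, and they are shown for that reason, again with bases 2 to 8 in capitals.
miR-29b-1-5p, from Mir29b-1: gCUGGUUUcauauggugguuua
miR-29b-2-5p, from Mir29b-2: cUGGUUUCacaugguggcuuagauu
miR-29a-5p, from Mir29a: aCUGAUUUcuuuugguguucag
miR-29c-5p, from Mir29c: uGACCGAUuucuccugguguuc
The 5p strands have 4 different seeds. The deposited counts are per precursor gene and do not separate the 5p from the 3p strand.

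The genes lie as head-to-tail pairs at 2 loci (GRCm38). On chromosome 6, minus strand, Mir29a lies at 31062660 to 31062747 and Mir29b-1 at 31063023 to 31063093, with 275 bases between them. Mir29b-1 overlaps the long noncoding RNA Gm27019 by 2 bases, and Mir29a lies in no other annotated gene. On chromosome 1, plus strand, Mir29b-2 lies at 195037040 to 195037120 and Mir29c at 195037547 to 195037634, 426 bases apart. Both lie wholly in an exon of the noncoding host gene A330023F24Rik, and both face a 3′ UTR exon of Cd46, a complement regulator, on the other strand. No opposite-strand read was counted at any of the 4 genes in either library, out of 531453 such reads at all miRNA genes in replicate 1 and 318094 in replicate 2.

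Sense counts, those on the gene's own strand, totalled 5529166 in replicate 1 and 3169882 in replicate 2. Levels are given per 1000000 sense miRNA counts (CPM). A floor of 3 counts was 0.543 CPM in replicate 1 and 0.946 CPM in replicate 2. It was not put into the levels, and genes with no counts are given as 0 CPM. Intervals below are exact 95% Clopper-Pearson intervals and, like these floors, cover counting error only, since reads amplified by PCR are not independent molecules. The tissue label was checked against miRNAs of liver cells: the hepatocyte miRNA Mir122 stood at 175539 ± 9614 CPM (SD, n = 2), and the erythroid Mir144 and endothelial Mir126a at 8347 ± 807 and 44199 ± 867 CPM. Of 3 neural miRNAs measured, Mir124a-1 and Mir124a-2 had 0 counts and Mir137 stood at 49.8 ± 23.6 CPM. Of 3 muscle miRNAs, Mir206 reached 1430 CPM (replicate 1) and 2628 CPM (replicate 2), and Mir1a-1 and Mir133a-1 had 1 count each over both libraries. Multimapping reads are listed apart from the genes, so counts this low do not show that a mature RNA was absent. The pools differed in some of these markers. Of 6 hepatocyte miRNAs all 6 were higher in replicate 1 by the exact binomial test described further on, by a log2 ratio of 0.14 for Mir122. Of all 456 genes tested, 90 were higher and 86 lower in replicate 1, and the test covers counting error only. It calls smaller differences at higher counts. The log2 ratios of Mir122, Mir192 (0.16), Mir101b (0.15) and Mir194-2 (0.11) are smaller than the SD of 0.20 of genes with at least 100 CPM. Mir194-1 (0.73) and Mir802 (3.77) had larger ratios at lower levels. Mir802 had 140 counts in replicate 1 and 6 in replicate 2. Of 3 erythroid miRNAs, Mir451a was higher in replicate 1, at 18658 CPM against 8843 CPM in replicate 2, while Mir144 (7777 and 8918 CPM) and Mir486 (715 and 818 CPM) were lower. The part of these cells and tissues in the levels of the miR-29 genes was not tested.

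Mir29a made up most of the family's counts in fetal liver. The 4 genes together had 5130 sense counts in replicate 1 and 3099 in replicate 2, or 0.0953% ± 0.00352 of sense miRNA counts (SD, n = 2). The share was 0.0928% in replicate 1 (interval 0.0903 to 0.0954) and 0.0978% in replicate 2 (0.0944 to 0.101). Mir29a made up 89.3% ± 0.114 of the family, Mir29c 9.60% ± 0.257, and both miR-29b genes together 1.06% ± 0.370. These are shares of the reads assigned to each gene. How many reads of miR-29b-3p, which both miR-29b genes make, were set apart as multimapping was not tested. In whole tissue, fewer cells of a type and less RNA per cell cannot be told apart.

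Mir29a had 4587 counts in replicate 1 and 2766 in replicate 2, which is 830 CPM (interval 806 to 854) and 873 CPM (840 to 906). Both libraries lie close to the mean of 851 ± 30.4 CPM. This put Mir29a at rank 93 of the 1973 genes, below 92 others. RNA of under 30 nucleotides was selected, so counts were not divided by gene length.

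Mir29c had 502 counts in replicate 1 and 292 in replicate 2, or 90.8 CPM (83.0 to 99.1) and 92.1 CPM (81.9 to 103). The mean of 91.5 ± 0.937 CPM gave rank 191, and the counting intervals are wider than that SD. Mir29a exceeded Mir29c 9.31-fold ± 0.237 in counts, although their 3p RNAs differ by 1 base.

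Mir29b-1 had 33 counts in replicate 1 and 37 in replicate 2, or 5.97 CPM (4.11 to 8.38) and 11.7 CPM (8.22 to 16.1). Its counts were thus nearly equal in libraries of unequal depth, and its level of 8.82 ± 4.03 CPM had the widest relative spread of the family. Its rank was 295. Mir29b-2 had 8 counts in replicate 1 and 4 in replicate 2, or 1.45 CPM (0.625 to 2.85) and 1.26 CPM (0.344 to 3.23), a mean of 1.35 ± 0.131 CPM at rank 431. It was the member that did not reach 10 counts in both libraries, the level called detected here. Mir29a, Mir29c and Mir29b-1 did, against 352 detected genes in all.

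**Figure D1:**
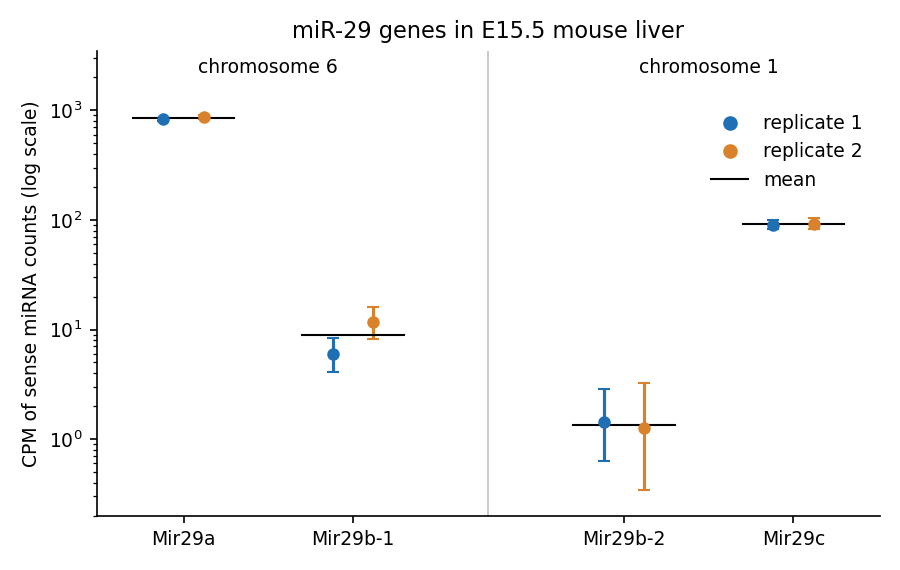
Level of each miR-29 gene in CPM of sense miRNA counts on a log axis, by locus and library. Points are libraries, bars are exact 95% intervals of counting error and lines are means. The order Mir29a, Mir29c, Mir29b-1, Mir29b-2 is the same in both libraries, with means of 851, 91.5, 8.82 and 1.35 CPM.

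The order of the members was the same in both libraries. No 2 neighbours in that order had overlapping intervals within a library. The closest pair was Mir29b-1 and Mir29b-2, where the lower bound for Mir29b-1 in replicate 1 was 4.11 CPM and the upper bound for Mir29b-2 was 2.85 CPM. In replicate 2 these bounds were 8.22 and 3.23 CPM.

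**Figure D2:**
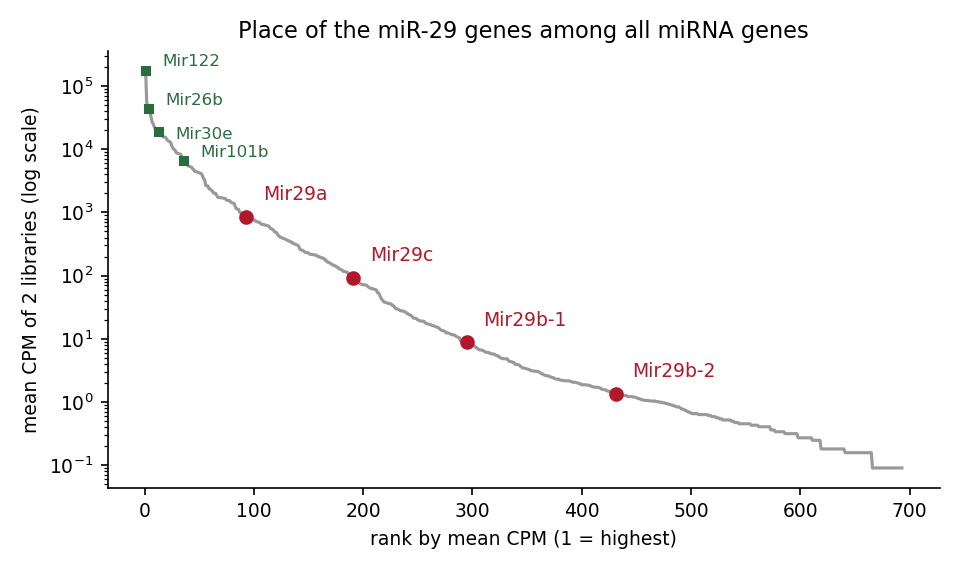
Mean CPM of all 693 miRNA genes with a count, on a log axis, against rank. The miR-29 genes sit at ranks 93, 191, 295 and 431, and Mir122, Mir26b, Mir30e and Mir101b are marked for scale.

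Genes next to each member in the order of mean CPM give the scale of its level. Mir29a lay between Mir214, a mesenchymal miRNA at 866 ± 95.8 CPM, and Mir27b at 828 ± 74.5 CPM. Mir323 at 933 ± 41.6 and Mir16-2 at 821 ± 2.35 CPM followed on either side. The SDs of Mir29a, Mir214 and Mir27b exceed the distances between their means, so their order is not resolved. Mir29c lay among Mir101a (98.8 ± 5.71 CPM), Mir132 (92.2 ± 9.50), Mir666 (91.3 ± 2.86) and Mir152 (88.0 ± 1.87), and its order against Mir132 and Mir666 is likewise within the spread. Mir29b-1 lay among Mir1948, Mir452, Mir5104 and Gm24245, at 8.92, 8.85, 8.71 and 8.19 CPM. Mir29b-2 lay among Gm24572, Mir6993, Mir7049 and Mir3091, all between 1.33 and 1.40 CPM. With 2 libraries, likeness of pattern across samples could not be measured, so these neighbours share a level and nothing more.

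Within each locus, the miR-29b gene was far below its partner. Mir29a counts were 139 times those of Mir29b-1 in replicate 1 (interval 98.8 to 202) and 74.8 times in replicate 2 (54.1 to 106). Mir29c counts were 62.8 times those of Mir29b-2 in replicate 1 (31.6 to 146) and 73.0 times in replicate 2 (28.2 to 270). The gap was thus present at both loci and in both libraries, and within each library the intervals of the loci's ratios overlap.

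The loci differed about as much as Mir29a and Mir29c did. The chromosome 6 locus had 4620 counts in replicate 1 and 2803 in replicate 2, against 510 and 296 for the chromosome 1 locus. Chromosome 6 over chromosome 1 was 9.26 ± 0.290 (SD, n = 2). Mir29a and Mir29c make up nearly all counts of their loci, so this ratio is close to theirs. Between the miR-29b genes, Mir29b-1 over Mir29b-2 was 4.13 in replicate 1 (1.87 to 10.3) and 9.25 in replicate 2 (3.32 to 35.7). These ratios rest on 33 and 8 counts in replicate 1 and on 37 and 4 in replicate 2. By the reads assigned to each gene alone, the chromosome 6 gene was the higher there too.

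The sequence of the hairpins bears on which reads could be counted. The tables list multimapping reads apart from the genes, 4302465 (29.3% of all reads) in replicate 1 and 2632729 (31.1%) in replicate 2. They outnumber the family's own counts 839 and 850 times. The hairpins of Mir29b-1 and Mir29b-2 share an unbroken run of 25 bases that spans the whole of miR-29b-3p. In Mir29b-1, 5 of 50 windows of 22 bases also occur in another annotated hairpin, in Mir29b-2 4 of 60, and in Mir29c 1 of 67, from a run of 22 bases shared with Mir29b-1. In Mir29a 0 of 67 windows do, and 0 of 71 windows of 18 bases. The search was for exact matches, in 1005 annotated hairpins and not the rest of the genome. It does not cover reads placed with a mismatch, and miR-29a-3p and miR-29c-3p differ by 1 base. How many of the multimapping reads were miR-29b-3p was not tested, so the levels of Mir29b-1 and Mir29b-2 are those of the reads assigned to each gene alone.

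Genes in the same position were looked up in the sequence table alone. It gives 54 mature sequences for more than 1 gene, from 97 genes, of which 87 were measured. Of those 87, 41 were detected, with a median of 37.4 CPM and a highest level of 4885 CPM, that of Mir16-1. Of 829 measured genes with no such sequence, 276 were detected, with a median of 170 CPM, and 24 of them stood above 10000 CPM, against 0 of the 87. Over all measured genes the order of the medians turned round, at 2.17 CPM for the 87 and 0.543 CPM for the 829, since a larger share of the 829 was not detected. Mir29b-1, at 8.82 CPM, was below the lower quartile of 15.2 CPM of the detected genes with a shared mature sequence. Mir29b-2 was not detected, so it cannot be set against that quartile. Among all 87 measured genes with a shared mature sequence, Mir29b-1 was above the median of 2.17 CPM and Mir29b-2, at 1.35 CPM, below it. The leading gene of that set was Mir16-1 of the cell cycle-linked miR-15/16 family. Mir92-1 of the miR-17-92 cluster at 4271 ± 230 CPM and Mirlet7f-2 at 2021 ± 20.5 CPM came next. A gene is in that set if any of its mature sequences is shared, and its counts do not separate the strands. Whether the counts of these leading genes came from the shared sequence was not tested.

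The same comparison within clusters was chosen after the values were seen. Apart from miR-29, 21 pairs of neighbours on 1 strand within 10 kb joined a gene with a shared mature sequence and a gene without, with at least 1 of them detected. In 18 of the 21, the gene without was the higher. Over the 20 pairs with a ratio, which include the 3 where it was lower, its level was a median of 12.7 times that of the gene with (quartiles 2.06 and 58.9). By mean CPM, Mir29a over Mir29b-1 was 96.5 and Mir29c over Mir29b-2 was 67.5, both above the upper quartile. The 3 pairs that went the other way were Mir546 with Mir26a-2 (0 and 36.4 CPM), Gm23363 with Mir199b (0 and 126 CPM) and Mir363 with Mir92-2, at 0.608 times. Mir27a was 1.15 times Mir24-2 and Mir15a 2.03 times Mir16-1. Genes are not replicates, and no test was made on these counts.

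The miR-26, miR-30 and miR-101 families, which also have paralogous genes, were set beside miR-29. Its level against other such families was not compared. The miR-26 family held 4.34% ± 0.103 of sense counts, 45.6 ± 0.604 times that of miR-29. The miR-30 family held 4.02% ± 0.0113, or 42.3 ± 1.44 times, and the miR-101 family 0.668% ± 0.0403, or 7.02 ± 0.683 times. These differences are many times the SD of 2 libraries, and no test between families was made.

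The families were alike in that the genes with a shared mature sequence were at the bottom. Mir26a-1 and Mir26a-2 stood at 4.22 ± 0.169 and 36.4 ± 4.22 CPM, together 0.0935% ± 0.00711 of their family, while Mir26b stood at 43398 ± 1028 CPM. Mir30c-1 and Mir30c-2 stood at 73.6 ± 11.0 and 75.5 ± 18.1 CPM, together 0.371% ± 0.0712 of theirs, below Mir30e at 18411 ± 496 CPM and Mir30a at 16196 ± 726 CPM. Mir30b, which has no shared sequence in the table, was also low at 122 ± 7.79 CPM. In the miR-101 family, with no shared sequence, Mir101a stood at 98.8 ± 5.71 CPM and Mir101b at 6582 ± 409 CPM.

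**Figure D3:**
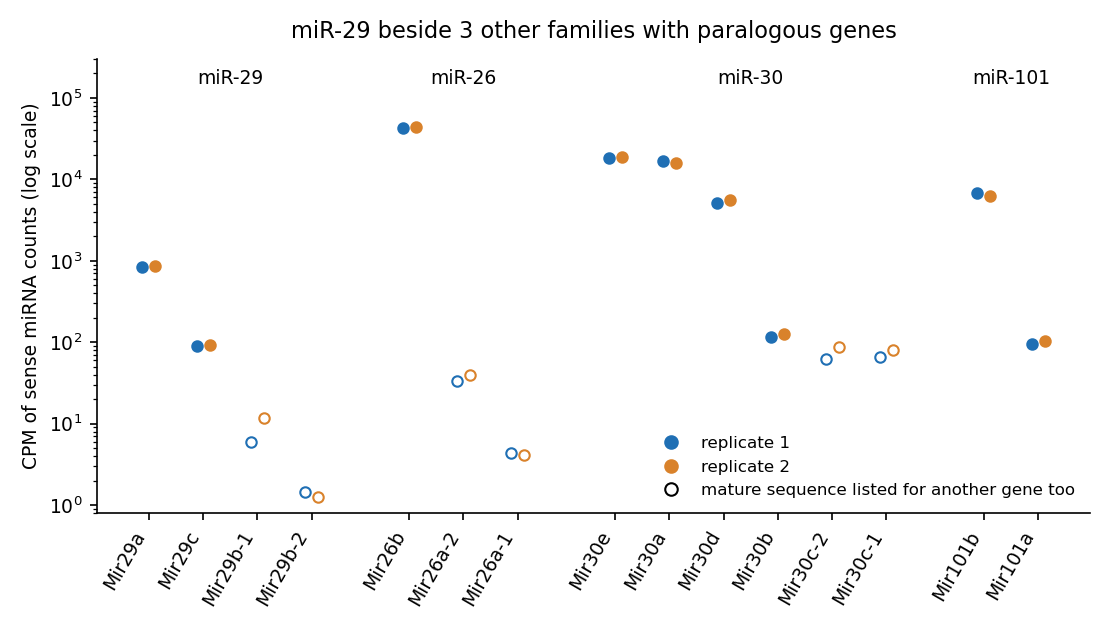
CPM of each gene of the miR-29, miR-26, miR-30 and miR-101 families on a log axis, by library. Open points are genes whose mature sequence is listed for another gene too. They are the lowest of each family that has them, from 1.35 CPM for Mir29b-2 to 75.5 CPM for Mir30c-2.

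Other miRNAs known for work on matrix genes or fibrosis were taken as a list of 13, of which 10 were detected. Their median was 126 CPM, against a median of 0 CPM over all 1973 genes, while the 10 detected had a median of 461 CPM, against 135 CPM over all detected genes. Mir21a, a profibrotic miRNA of many tissues, was the highest at 20891 ± 330 CPM, 24.6 ± 1.26 times Mir29a. Mir143, a miRNA of smooth muscle and fibroblasts, stood at 15632 ± 1191 CPM, 18.4 ± 2.06 times Mir29a, and its cluster partner Mir145a at 216 ± 37.5 CPM. Mir214 over Mir29a was 1.02 ± 0.0763, within the spread of 1. Mir199b, from a mesenchymal family whose mature RNAs are shared, stood at 126 ± 1.25 CPM, with Mir199a-2 at 17.4 ± 1.44 and Mir199a-1 at 1.67 ± 0.315 CPM. Mir192 of liver and gut and the epithelial Mir200b stood at 3298 ± 222 and 705 ± 98.0 CPM. Mir133a-1 had 1 count in replicate 2, and Mir133a-2 had none. Whether these miRNAs and miR-29 come from the same cells was not tested.

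A second list held miRNAs known to act on DNA methyltransferases, 7 in all. Of these, 6 were measured and all 6 were detected, with a median of 879 CPM, so Mir29a at 851 CPM lies near the middle of the list. Mir148a and Mir152, which target DNMT1 in human cells, stood at 1420 ± 93.7 and 88.0 ± 1.87 CPM, and Mir148b of the same family at 338 ± 11.8 CPM. Mir148a over Mir29a was 1.67 ± 0.170. Mir101b, of a family that targets DNMT3A in human cells, stood at 7.75 ± 0.757 times Mir29a. Mir143, which also targets DNMT3A in human cells, is on both lists. Mir101c was not analysed here.

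Each gene's split between the libraries was set against TMM-scaled sizes by an exact binomial test, two-sided, with Benjamini-Hochberg adjustment over all genes tested. The test covers counting error only and compares these libraries, not conditions. Of 456 genes tested, 38.6% differed at an adjusted p under 0.05. Of the 4 miR-29 genes 1 did, Mir29b-1, so the family had no more calls than that background. Its log2 ratio of replicate 1 over replicate 2 was -0.94 (interval -1.66 to -0.22, exact binomial test, adjusted p = 0.0259). The call rests on 33 and 37 counts. Among the 77 genes of 5 to 20 CPM the log2 ratios had an SD of 0.78 and a median absolute value of 0.393. Mir802, with a log2 ratio of 3.77, is among these genes and widens the SD. The value of Mir29b-1 lies little beyond 1 SD but well above that median.

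For Mir29a the log2 ratio was -0.05 (interval -0.12 to 0.02, exact binomial test, adjusted p = 0.318). For Mir29c it was 0.01 (-0.21 to 0.22, exact binomial test, adjusted p = 1). The 187 genes with at least 100 CPM had an SD of 0.20 and a median absolute log2 ratio of 0.115, so Mir29a matched between the pools more closely than most of them. For Mir29b-2 the ratio of 0.22 has an interval of -1.68 to 2.41 (exact binomial test, adjusted p = 1), which holds 2-fold differences in either direction, so no difference of that size was detectable at this depth.

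**Figure D4:**
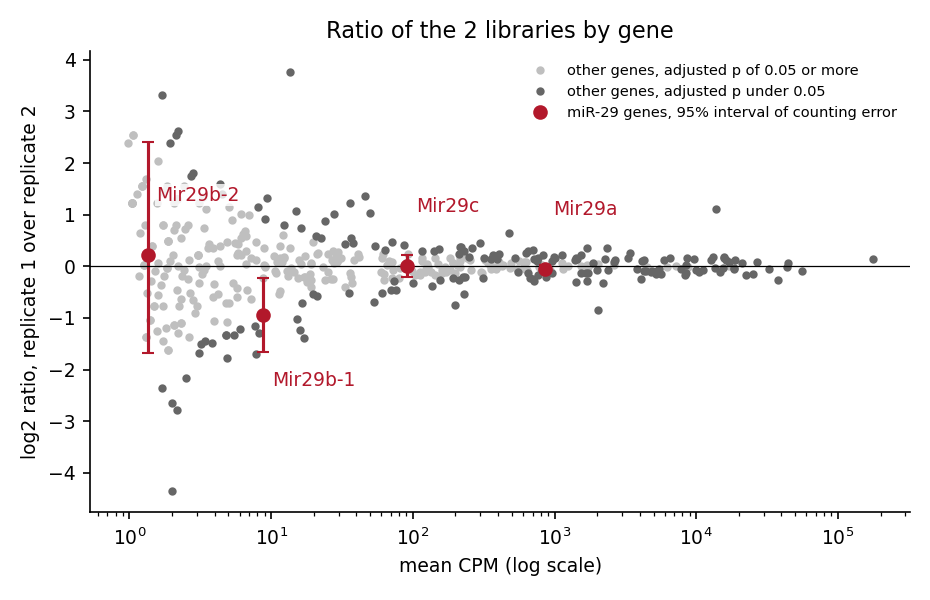
Log2 ratio of replicate 1 over replicate 2 against mean CPM (log axis) for the tested genes with counts in both libraries. Mir29a at -0.05 and Mir29c at 0.01 lie near 0, Mir29b-1 lies at -0.94, and the bars of the miR-29 genes are 95% intervals of counting error.

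Of the matrix-linked list 11 members were tested, of which 5 were higher and 3 lower in replicate 1, so 8 of 11 were called, against 38.6% of all genes tested (90 higher and 86 lower of 456). Mir143 (0.18), Mir145a (0.38), Mir200b (0.31), Mir192 (0.16) and Mir21a (0.06) were the higher by log2 ratio, and Mir214 (-0.20), Mir30c-1 (-0.28) and Mir30c-2 (-0.47) the lower. The median of the list was 0.06, against 0.03 over all genes tested. Of the methylation-linked list 3 of 6 were higher in replicate 1, Mir143, Mir148a (0.16) and Mir101b (0.15), and 0 were lower, with a median of 0.13, against the same 38.6% called in either direction. The exact binomial test with an adjusted p under 0.05 is the rule for all of these. It calls smaller differences at higher counts, and with at least 50 counts summed 155 of 319 genes were called. Detected members of the 2 lists had medians of 461 and 879 CPM, against 135 CPM over all detected genes. The 38.6% is therefore not a rate for genes at the level of these lists.

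What the family can pair with was read from sequence, since no messenger RNA was measured. The match to the shared seed is TGGTGCT, and TGGTGCTA adds the A that often faces base 1 of a microRNA. Both were searched on the sense strand only, in the longest annotated 3′ UTR of each gene of GENCODE release M21. Of 20936 genes with such a UTR, 13.2% held TGGTGCT and 2.87% held TGGTGCTA, which contains it.

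A list of 17 known or proposed miR-29 targets held the match more often. It was drawn from genes known as targets, partly for these very matches, so their presence is no independent result. Of 10 matrix genes, 8 held TGGTGCT, in 15 places, where UTRs of like length (80% to 125%) hold it in 12.6% of genes on average. TGGTGCTA was in 7 of them. Of 6 methylation genes all 6 held TGGTGCT, in 29 places, against 33.2% of UTRs of like length, and 5 held TGGTGCTA.

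Examples from each group are printed because they show the same letters in genes of unlike function, with the match in capitals and the 14 bases before it in lower case (GRCm38, GENCODE M21 transcripts).
Col1a1, fibrillar collagen I, chr11:94952524-94952545, plus strand: tgggaaggaatttcTGGTGCTA
Col3a1, fibrillar collagen III, chr1:45348968-45348989, plus strand: tcaaaatgtctcaaTGGTGCTA
Eln, elastin, chr5:134703736-134703757, minus strand: gacctcatcaacgtTGGTGCTA
Fbn1, fibrillin 1, chr2:125301173-125301194, minus strand: ttctgttgtctgttTGGTGCTA
Dnmt3a, a de novo DNA methyltransferase, chr12:3911391-3911412, plus strand: ccaggggaggtagcTGGTGCTA
Dnmt3b, its paralog, chr2:153686613-153686634, plus strand: agagtagcccggcaTGGTGCTc
Tet3, which oxidises methylcytosine, chr6:83364336-83364357, minus strand: aatagtctaataaaTGGTGCTA

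The number of matches varied within each group. Among matrix genes, Col5a1 of fibril-nucleating collagen V had 4 and Eln 3, with 1 each in Col1a1, Col3a1, Col5a2 and the basement membrane collagen Col4a1, 2 each in Col4a2 and Fbn1, and 0 in Col1a2 and Sparc. For Col1a2 and Sparc this says only that these letters are not in the UTR searched. Among methylation genes, Tet3 had 8, Tet1 7, Tet2 5 and Tdg, a glycosylase of DNA demethylation, 3. Dnmt3a had 5 in a UTR of 6696 bases, where UTRs of like length average 0.679. Dnmt3b had 1 in 1331 bases and no TGGTGCTA. Mcl1, a survival gene of the Bcl2 family, had 1. A match is a description of the letters and not of binding, and all 4 miR-29 genes make a 3p RNA with this same seed.

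**Figure D5:**
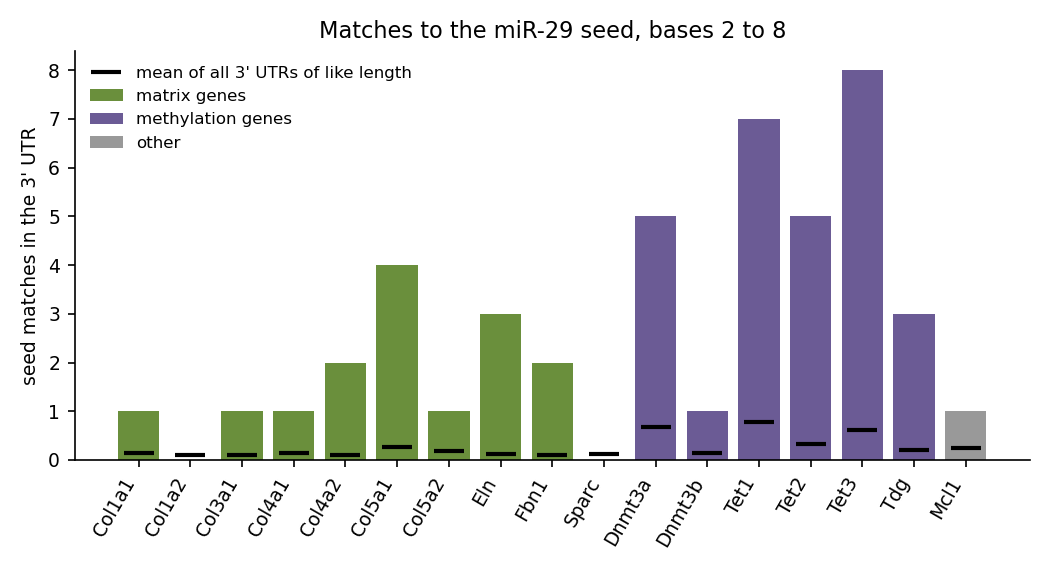
Number of matches to TGGTGCT in the 3′ UTR of each gene of the target list, as bars, with black marks for the mean of all 3′ UTRs of like length. Tet3 with 8, Tet1 with 7 and Dnmt3a and Tet2 with 5 each are the tallest, and Col1a2 and Sparc have 0.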

How the data were processed

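Small RNA of fetal mouse liver was sequenced in 2 libraries, each of a pool of embryos. The deposited tables hold raw read counts per annotated miRNA gene, for both strands and each strand apart, made by the authors on mm10 with annotation M4, per the text deposited beside the tables. For the aligner, counting program and trimming: not given in the sources used here.

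Sense counts were used. Names and positions came from GENCODE M21 on the same assembly, where 1894 of 1973 identifiers matched by their stable part, 79 of them with another version. Mir29b-1 and Mir29b-2 were among the 79, so their bounds in counting may differ. CPM divides by sense miRNA counts. Values after ± are SDs of 2 libraries. The members and lists were chosen with earlier results of these data known. Named were the 4 genes, the 2 next above and below each in mean CPM, the lists and markers, and the 3 highest genes with a shared mature sequence.

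Detection needed 10 counts in both libraries. Pairs within clusters were added after values were seen. The binomial test (scipy 1.17.1) took genes with at least 10 counts summed, with sizes from edgeR 4.0.16 TMM, and was tested on simulated data. DESeq2 1.42.0 size factors, total counts, other count minimums and unstranded counts were alternatives. Mature sequences came from RefSeq (GRCm38.p6), where 916 measured genes matched by symbol. The 3′ UTRs came from protein-coding transcripts with an annotated stop codon and at least 20 bases after it.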

Additional observations from a re-analysis of the deposited data

How the results depend on the processing

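No member had opposite-strand reads, so its unstranded counts equal its sense counts. The order of the members, the share of Mir29a and the ratios within and between the loci could therefore not change with unstranded counts. For these values that setting is no test of the processing. Scaling by TMM or DESeq2 moved the mean CPM of each member by less than the SD of the libraries. Either scaling shifts the libraries in opposite directions, so their mean could hardly move, and this is a weak test. With unstranded totals the family share was 0.0867%, Mir29a 775 and Mir29c 83.3 CPM, and the medians of the matrix-linked and methylation-linked lists 115 and 801 CPM. Against all reads the family share was 0.0358%, and Mir29a, Mir29c, Mir29b-1 and Mir29b-2 stood at 320.0, 34.4, 3.31 and 0.509 per 1000000 reads. These shifts come from the larger denominators. Genes with a shared mature sequence had a median of 2.17 CPM over all and 37.4 CPM over those detected, and those without had 0.543 and 170 CPM, so their order turned round.

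Mir29b-1 was called under all 5 alternatives of the binomial test, with an adjusted p of 0.0182 to 0.0383, and no other member was; Mir29b-2 drops out where 50 counts are needed. Mir29a came closest by total counts (exact binomial test, adjusted p = 0.0844). Over all genes 155 to 187 were called, against 176, of which 90 were higher in replicate 1, and 80 of 177 by total counts. Leaving out either library only gives back the value of the other, so it adds no test. In replicates 1 and 2 the family share was 0.0928% and 0.0978%, and Mir29b-1 stood at 5.97 and 11.7 CPM. Mir29a over Mir29b-1 was 139 and 74.8. No paired analysis was possible because the labels give 1 group. Depth limits Mir29b-2, at 12 counts in all.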
